A study of Mus musculus with 6 samples.

Results

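Of the 20312 genes in the deposited table of mouse intestinal RNA-seq values, 9 genes of the complement system were taken by symbol: C2, C3, C4b, Cfb, Cfi, Cfp, Cd55, Cd59a and Serping1. Each had 1 row in the table, and all 9 passed the filter on low values. Intestine of Apc min/+ mice (control, 3 libraries) was compared with intestine of Apc min/+ mice that also carried Sirt7 -/- (knockout, 3 libraries). Both groups were 5 months old and of the strain given as 129, and both carried the Min allele of Apc, which truncates a negative regulator of Wnt signalling and gives rise to intestinal adenomas. Sirt7 encodes a nuclear deacylase of the sirtuin family. The labels name no Cre driver or promoter, and they do not give the segment of intestine, the tumour content or whether each library had an animal of its own. Any p-value here reflects only how far these libraries spread, which may be technical.

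Complement is a cascade of plasma and tissue proteins that tags surfaces for phagocytosis and, at its end, can perforate membranes. The classical and lectin branches cleave C4 and C2, the alternative branch uses factor B, factor D and properdin, and all branches meet at the cleavage of C3. Host cells restrain the cascade with a C1 inhibitor, with surface proteins such as CD55 and CD59, and with factor I, a protease that destroys activated C3 and C4 with the help of cofactors. Plasma complement comes mostly from the liver, but intestinal epithelium, fibroblasts and macrophages also make some of its components.

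Sirt7 itself was low in every library labelled knockout. It stood at 2157, 2118 and 2244 normalised reads (read counts divided by 1 size factor per library) in control and at 240.4, 224 and 219 in knockout. This was a log2 change of -3.25 ± 0.07 (SE, limma adjusted p = 2.96e-20), and the exact two-sided permutation p of 0.1 is the smallest that 3 against 3 libraries allow. The position of the deletion in the gene is not given in the sources used here. Library depth was 24987313 to 29603348 reads. In each of the 6 pairs of libraries within a group, counts differed beyond sampling noise, with a mean chi-square of 3.73 to 6.92 over genes.

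The reactive sites of 5 of the encoded enzymes and opsonins are shown, for the genes that changed and for those that did not pass, because they mark what these proteins do. C3 and C4b share the thioester site through which their activated products bind covalently to surfaces, and C2, Cfb and Cfi share the active site of serine proteases. Each line gives a stretch of coding sequence from the mouse transcripts of GENCODE vM21, 5′ to 3′. Capitals mark 5 codons, the only in-frame match in each gene to the degenerate pattern of its site (thioester in C3 and C4b, protease in C2, Cfb and Cfi).
C3: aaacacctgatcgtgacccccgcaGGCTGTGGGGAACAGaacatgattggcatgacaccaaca
C4b: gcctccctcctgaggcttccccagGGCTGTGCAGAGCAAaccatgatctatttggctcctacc
C2: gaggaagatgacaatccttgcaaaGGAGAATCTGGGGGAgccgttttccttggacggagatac
Cfb: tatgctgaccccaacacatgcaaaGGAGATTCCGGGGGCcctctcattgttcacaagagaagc
Cfi: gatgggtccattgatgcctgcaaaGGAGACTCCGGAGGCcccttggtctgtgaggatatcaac
In C3 the capitals are bases 3025 to 3039 of 4989 coding bases, and in C4b they are bases 3013 to 3027 of 5214. The protease site lies near the end of the coding sequence, at bases 2059 to 2073 of 2280 in C2, 2080 to 2094 of 2283 in Cfb and 1627 to 1641 of 1809 in Cfi.

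With the deposited scaling, factor I and the membrane inhibitors CD55 and CD59a were expressed more highly in the knockout libraries. C3, C4b, properdin and the C1 inhibitor were lower. Of the 9 genes, 7 passed the test, 3 of them higher (Cfi, Cd59a and Cd55) and 4 lower (C3, C4b, Cfp and Serping1). The test was limma on log2(value + 1) over all 16600 tested genes, called at an adjusted p under 0.05. The comparison was broad, since 62.5% of all tested genes were called (31.6% higher and 30.9% lower), so the share of these genes that was called was near the background. The 7 called genes were also the ones whose groups did not overlap, which held for 66.5% of all tested genes. The median log2 change was -0.13 over the 9 genes and 0.01 over all tested genes. In the authors' deposited table the same numbers of these genes, 3 higher and 4 lower, had an adjusted p under 0.05, against 49.2% of all its rows.

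**Figure D1:**
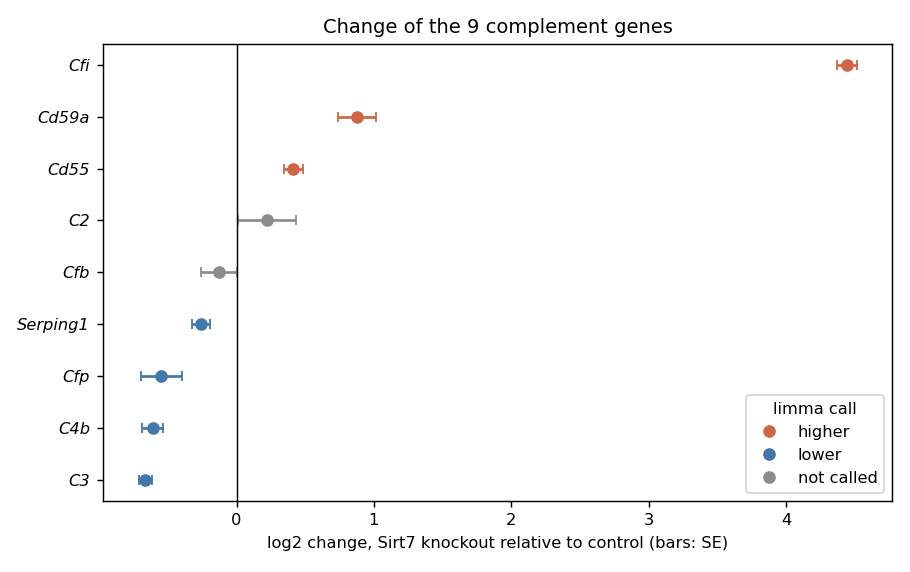
Log2 change of each of the 9 complement genes, knockout minus control, computed on log2(value + 1), with bars for the SE of the limma fit and colours for its call. Cfi stands apart at 4.44, Cd59a and Cd55 lie to the right of 0, and the 4 called lower lie between -0.66 and -0.26.

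C4b and C2 together form the C3 convertase of the classical and lectin branches. C4b, the mouse gene for the fourth component (mm10 chromosome 17, 34728380 to 34743882, minus strand), stood at 886, 1018 and 1013 normalised reads in control and at 659, 605 and 642 in knockout. Every knockout library lay below every control library, and the mean fell from 972 ± 75.2 to 635 ± 27.7 (SD, n = 3 each; log2 change -0.61 ± 0.07, limma adjusted p = 1.6e-07). C2, the protease subunit (chromosome 17, 34862604 to 34898265, minus strand), had 55.7, 78.0 and 76.5 normalised reads in control and 91.0, 81.7 and 71.5 in knockout. The groups overlapped and the difference did not pass (log2 change 0.22 ± 0.21, limma adjusted p = 0.37). With 203 control and 257 knockout reads, the counting interval of its ratio, which covers counting error only, ran from 0.965 to 1.41. In bulk tissue, fewer cells of a type and less RNA per cell cannot be told apart, for these genes and for those that follow.

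Serping1 encodes C1 inhibitor, the serpin that blocks the proteases C1r, C1s and the MASPs at the start of both branches (chromosome 2, 84765387 to 84775444, minus strand). Its control libraries held 1088, 1035 and 1034 normalised reads and its knockout libraries 821, 895 and 922. The fall was small, from 1052 ± 31.0 to 879.7 ± 52.4, with no overlap between the groups (log2 change -0.26 ± 0.07, limma adjusted p = 0.0015). It was the smallest change among the called members. The normalised reads of all genes summed to 29815648 to 30180827 per control library and to 24908995 to 25381988 per knockout library. Scaling by total reads was not among the alternatives. It would raise every knockout level relative to control, by about as much as Serping1 fell, so the fall of Serping1 depends on the scaling. The same scaling would shrink the falls of C3, C4b and Cfp and enlarge the rises of Cd55, Cd59a and Cfi. Smaller falls, such as those of Cfb and Cr1l below, could reverse.

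C3 is the hub of the cascade and the source of the opsonin C3b and the anaphylatoxin C3a (chromosome 17, 57203970 to 57228136, minus strand). It had 4349, 4561 and 4662 normalised reads in control and 3068, 2748 and 2766 in knockout, so all 3 knockout libraries lay well below the control range. The mean fell from 4524 ± 159.7 to 2861 ± 179.8, leaving 63.2% of the control level (log2 change -0.66 ± 0.05, limma adjusted p = 5.6e-11). Per kb of annotated exon, C4b stood at 0.194 ± 0.00909 of C3 in control and 0.201 ± 0.00796 in knockout, and these ratios overlapped between the groups (exact two-sided permutation p = 0.5).

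Factor B, encoded by Cfb, is the protease of the alternative convertase and an acute-phase gene (chromosome 17, 34856374 to 34862518, minus strand). Its normalised reads were 238, 199.8 and 193 in control and 193, 173 and 212 in knockout, and the groups overlapped. The difference did not pass (log2 change -0.13 ± 0.13, limma adjusted p = 0.42). The counting interval of the ratio was 0.818 to 1.03. Relative to C3 in the same library and per kb of exon, Cfb was 0.0850 ± 0.0130 in control and 0.123 ± 0.0143 in knockout, with no overlap (exact two-sided permutation p = 0.1, the smallest possible). Properdin, encoded by Cfp, stabilises that convertase and is known as a product of myeloid cells (chromosome X, 20925454 to 20931555, minus strand). It had 216, 280.0 and 239 normalised reads in control and 204, 169 and 134 in knockout. The highest knockout library came close to the lowest control library, and the mean fell from 245 ± 32.6 to 169 ± 35.0 (log2 change -0.55 ± 0.15, limma adjusted p = 0.0032).

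Factor I showed by far the largest change of the 9. Encoded by Cfi (chromosome 3, 129835884 to 129875332, plus strand), it is the serine protease whose active site is printed above and which inactivates C3b and C4b. Its control libraries held 139, 147 and 146 normalised reads, and its knockout libraries 3309, 3097 and 3052. The groups were far apart and tight, at 144 ± 4.33 against 3153 ± 137, a ratio of 21.8 (log2 change 4.44 ± 0.07, limma adjusted p = 1.3e-22). The ratio of its summed reads, 418 in control and 9946 in knockout, had a counting interval of 19.8 to 24.2. Cfi was the sole member to change over 2-fold. Over all tested genes 9.77% were called higher and over 2-fold, 6.88% were called lower and over 2-fold, and 0.91% had a log2 change at least as large as that of Cfi.

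Both membrane inhibitors were higher in knockout. CD55, or decay-accelerating factor, takes C3 convertases apart on the cell's own surface (Cd55, chromosome 1, 130439027 to 130462744, minus strand). It stood at 2279, 2116 and 1817 normalised reads in control and at 2913, 2659 and 2680.3 in knockout. The mean rose from 2071 ± 235 to 2751 ± 141 without overlap, a ratio of 1.33 (log2 change 0.41 ± 0.07, limma adjusted p = 2.4e-05). CD59a holds back the assembly of the membrane attack complex (Cd59a, chromosome 2, 104095801 to 104115354, plus strand). Its levels were 136, 178 and 167 in control and 319, 324 and 246 in knockout. The lowest knockout library lay above the highest control library, and the ratio of the means was 1.84 (161 ± 21.8 to 296 ± 43.5, log2 change 0.88 ± 0.14, limma adjusted p = 8.4e-06).

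**Figure D2:**
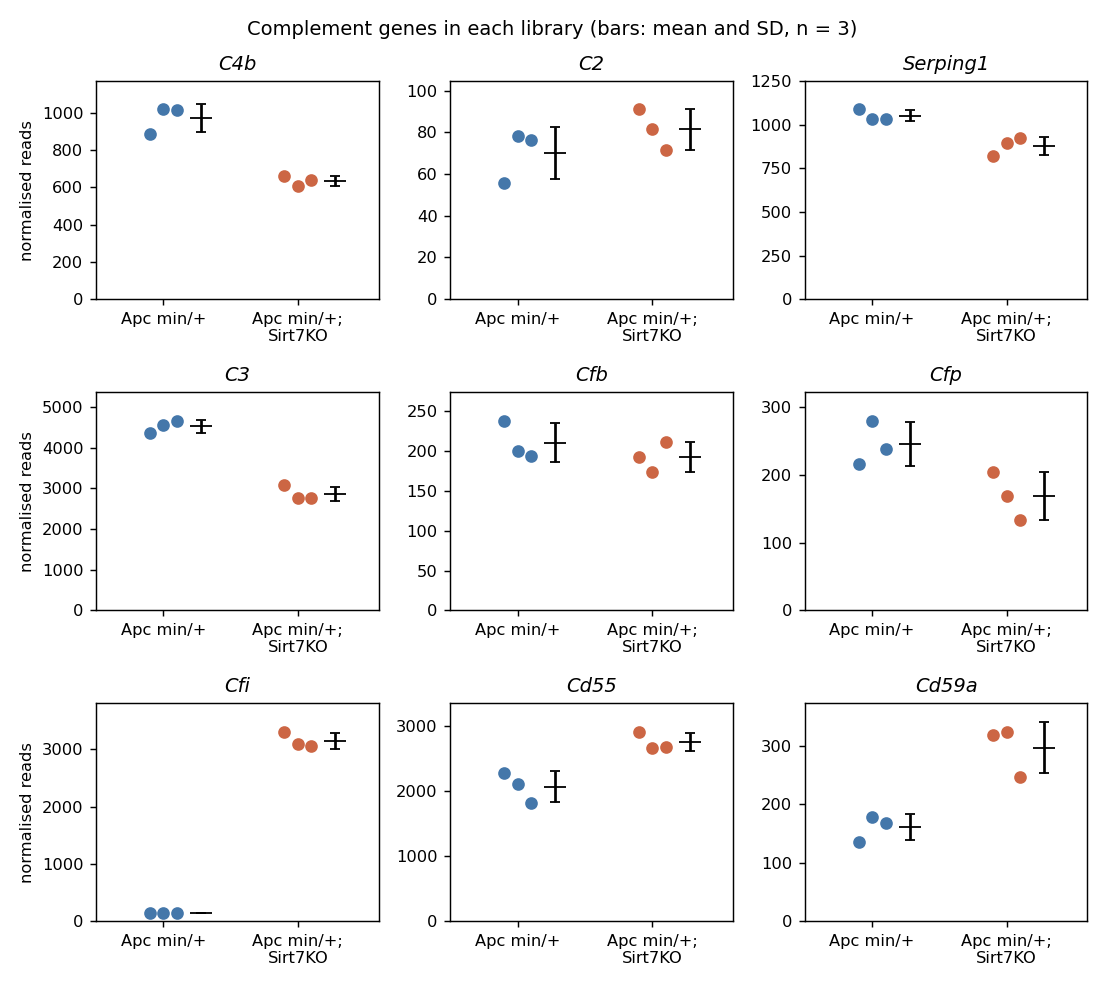
Normalised reads of each complement gene in every library, one dot per library, with the mean and SD (n = 3) beside the dots and each vertical axis starting at 0. The groups are apart in 7 panels and overlap in those of C2 (55.7 to 91.0) and Cfb (173 to 238), and Cfi moves from near the floor of its panel (139 to 147) to between 3052 and 3309.

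Levels of different genes can be compared only per length, so the deposited values were divided by the length of each gene's annotated exons. In control, C3 was the most abundant of the 9 at 879.7 normalised reads per kb, followed by Serping1 (453) and Cd55 (427), whose ranges over the 3 libraries overlapped. C4b (171), Cfp (141), Cd59a (88.7), Cfb (74.5) and Cfi (65.0) came next, and C2 was the least abundant at 18.1. In knockout, Cfi came first at 1420.2 per kb, ahead of Cd55 (567) and C3 (556), whose ranges overlapped. Serping1 (378), Cd59a (164), C4b (112), Cfp (97.2), Cfb (68.2) and C2 (21.0) followed. The ranges of C4b and Cfp overlapped in both groups and those of Cd59a and Cfb in control, and the other neighbours in each order did not overlap.

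Cfi passed from below to above C3, which encodes its substrate. It was 0.0742, 0.0749 and 0.0726 of C3 per kb in the control libraries and 2.50, 2.61 and 2.56 times C3 in the knockout libraries. Cd55 stood at 0.487 ± 0.0713 of C3 in control and at 1.02 ± 0.0115 in knockout. Cd59a stood at 0.101 ± 0.0111 and 0.294 ± 0.0409. Each of these ratios had an exact two-sided permutation p of 0.1, the smallest possible. The ranks depend on the length used. With the length of the longest coding transcript in place of all exons, Cd55 moved above Serping1 in control, its level in knockout became 1.95 times that of C3, and all other ranks stayed as given.

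**Figure D3:**
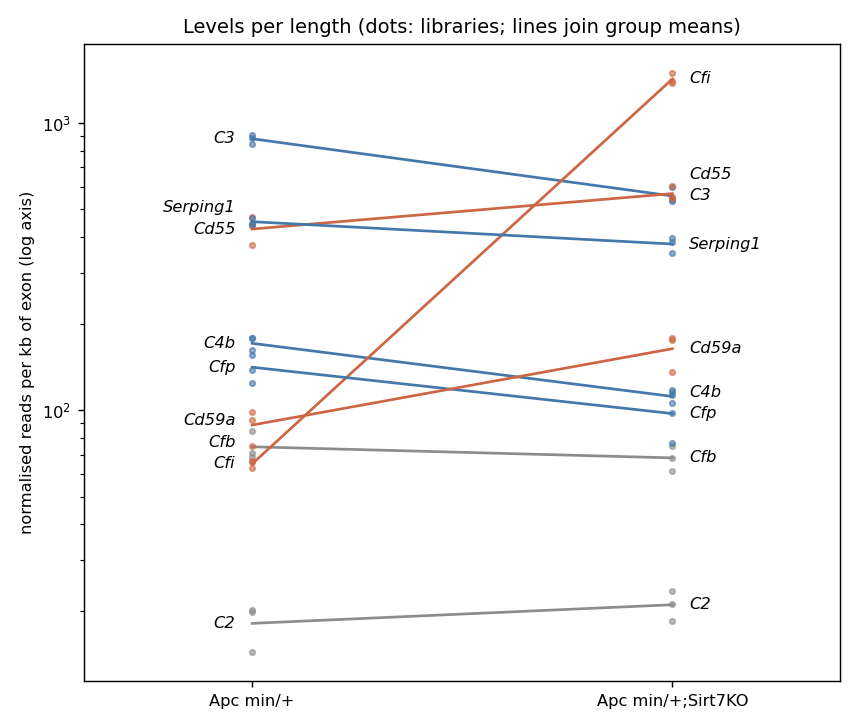
Normalised reads per kb of annotated exon (log axis) for each complement gene, with dots for libraries and lines joining the group means (orange higher, blue lower, grey not called). C3 leads in control at 879.7, and Cfi crosses from 65.0, next to last, to 1420.2, the highest level in knockout.

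Some of these reads could belong to near-identical copies or to overlapping genes. Of the windows of 50 bases along the longest coding transcript, 35.2% of those of C4b also occur in C4a, whose transcript is 95.9% identical. C4a stood at 45.8 ± 13.2 in control and 29.1 ± 5.96 in knockout and did not pass (log2 change -0.61 ± 0.30, limma adjusted p = 0.079). For Cd55 the share was 13.3%, all of it in Cd55b, which has no row in the table used here, and for Cd59a it was 3.98%, in Cd59b (9.34 ± 2.85 to 10.4 ± 1.32, not called). C2 and Cfb lie side by side, and an annotated read-through model over both, Gm20547, contains 58.0% of the windows of C2 and 81.4% of those of Cfb. Reads in those windows could be assigned to no single gene, so the levels of both genes are uncertain. On the other strand, Zbtb12 overlaps C2 and was called higher (70.5 to 141, log2 change 1.00 ± 0.18, limma adjusted p = 3.86e-05). Also on the other strand, the annotated antisense gene Gm16083, which has no row in the table used here, overlaps Cd55. The strand setting of the counting is not given in the sources used here. No window of C3, Cfi, Cfp or Serping1 occurred in another gene.

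Neighbouring genes moved in different directions. Of the 9, 4 lie on chromosome 17, and C4b, Cfb and C2 sit there within 169.886 kb in the major histocompatibility complex, where C4b fell and the other pair did not pass. Among the nearest tested genes of Cfi, Gar1 (245 ± 24.1 to 521 ± 41.0) and Pla2g12a (150.4 ± 14.8 to 517 ± 9.85) were higher, Casp6 was lower and Egf was not called. The nearest tested gene on 1 side of Cd55 was C4bp, which was also higher and is described below among the regulators. These neighbours were taken by position.

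RefSeq promoters of 300 bases, on GRCm38.p6 and running from 250 bases before to 50 bases after the annotated start, were at hand for 4 of the 9 genes: C3, Cfp, Cd55 and Cd59a. They were searched on both strands for C/EBP (TTGCGNAA), NF-kB (GGG, 2 free bases, TTTCC), ISRE (TTTC, 2 free bases, TTTC), GAS (TTCNNNGAA), TCF/LEF (CTTTGAT) and TATA box (TATAAA) letters. The promoters with a match are printed because they belong to the central component that fell and to an inhibitor that rose, with matches in capitals.
C3, chr17:57228087-57228386, minus strand: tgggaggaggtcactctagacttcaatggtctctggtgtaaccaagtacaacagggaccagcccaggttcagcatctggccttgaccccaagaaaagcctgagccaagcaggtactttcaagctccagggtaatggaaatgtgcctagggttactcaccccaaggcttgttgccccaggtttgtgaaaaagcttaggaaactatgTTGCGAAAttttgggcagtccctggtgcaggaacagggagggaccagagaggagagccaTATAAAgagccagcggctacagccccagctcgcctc
Cd59a, chr2:104095551-104095850, plus strand: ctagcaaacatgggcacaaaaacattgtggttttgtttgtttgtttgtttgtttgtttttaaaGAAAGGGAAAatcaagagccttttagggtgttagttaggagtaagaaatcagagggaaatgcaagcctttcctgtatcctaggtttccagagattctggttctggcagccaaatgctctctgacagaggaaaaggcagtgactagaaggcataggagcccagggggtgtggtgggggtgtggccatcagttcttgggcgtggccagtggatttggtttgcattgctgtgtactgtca
The C3 promoter held TTGCGAAA at position -45 and TATAAA at position 15 from the annotated start, and these motifs occurred in 0.805% and 13.6% of 32544 mouse promoters of the same length. The Cd59a promoter held the ISRE letters on the other strand, as GAAAGGGAAA at position -187, and 3.45% of promoters held this motif. The other motifs were found in 1.61% (NF-kB), 8.33% (GAS) and 3.73% (TCF/LEF) of promoters, and none of the 6 matched in the windows of Cfp and Cd55. A match describes the letters and not a bound site.

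The other genes of the pathway were listed by role. Of 51 further complement genes listed, 42 were in the table and 32 were tested. Of these, 4 were called higher and 15 lower, against backgrounds of 31.6% and 30.9%, and 13 were not called. Their median log2 change was -0.48, against 0.01 over all tested genes.

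In the classical and lectin branches, 6 of 10 tested genes fell, none rose and 4 did not pass. Over all tested genes 30.9% were lower and 31.6% higher. The median log2 change of these branches was -0.55. All 3 chains of C1q, which recognises antibody on surfaces, were lower: C1qa at 882 ± 42.0 in control and 545 ± 20.8 in knockout (log2 change -0.69 ± 0.07, limma adjusted p = 1.8e-08), C1qb at 770.2 ± 64.4 and 529.6 ± 11.4, and C1qc at 596 ± 75.7 and 401 ± 17.1. C1ra, the protease of the C1 complex, fell from 628 ± 15.9 to 412 ± 26.7. Mbl2, a mannose-binding lectin, fell from 1468 ± 36.0 to 734 ± 55.5 (limma adjusted p = 6.1e-12). Colec10, another collectin, fell from 256 ± 32.0 to 186 ± 32.4 (limma adjusted p = 0.0065), a call that was lost without the third knockout library (log2 change -0.32, limma adjusted p = 0.059). The C1q genes are known as macrophage products. The summed level of the 9 macrophage and monocyte markers in the table was 9415 to 9639 in control and 5281 to 5555 in knockout. Of these 9, 4 were called lower, against 30.9% of all tested genes, and Lyz2 was the most abundant. None of these markers was at 0 in any library, and their part in the fall of C1q and Cfp was not tested.

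Cfd, the protease factor D that cleaves factor B, is made mainly by adipocytes. It had 89.8, 100.5 and 131 normalised reads in control and 0.900, 10.1 and 5.72 in knockout (log2 change -4.36 ± 0.49, limma adjusted p = 3.4e-07). The knockout values rest on 17 reads, and the ratio of summed reads had a counting interval of 0.0289 to 0.0818. All 7 tested adipocyte markers were lower as well, against 30.9% of all tested genes. Their summed level was 9275 to 9732 in control and 4551 to 4643 in knockout. That sum follows its most abundant genes, Lipe (4294 ± 208 to 2165 ± 69.9) and Cidec (3957 ± 53.9 to 1770.1 ± 104). The adipokine gene Adipoq fell further, from 110.5, 81.2 and 69.5 normalised reads to 0, 1.01 and 11.4, and Plin1 and Lep were at 0 in 2 of 3 knockout libraries (control means 19.2 and 21.8). The part of these markers in the fall of Cfd was not tested. Of the terminal components, the C8 gamma chain gene C8g fell (85.5 ± 5.92 to 41.2 ± 12.4, limma adjusted p = 0.00045), and C6 (167 ± 17.0 to 141 ± 16.5) and C7 (68.2 ± 5.53 to 48.7 ± 5.51) did not pass.

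Among complement receptors, 4 of 6 tested genes fell and none rose, against 30.9% lower and 31.6% higher over all tested genes. Their median log2 change was -0.81. Cr2, which in mice encodes complement receptors 1 and 2 of B cells and follicular dendritic cells, had 930.2, 890.2 and 1046 normalised reads in control and 32.4, 55.5 and 77.3 in knockout. Its log2 change was -4.17 ± 0.27 (limma adjusted p = 1.2e-06). The integrin beta chain Itgb2 fell from 706 ± 42.6 to 251 ± 24.9, and its partners in the receptors for inactivated C3b, Itgax (533 ± 76.5 to 260.0 ± 42.9) and Itgam (333 ± 23.0 to 223 ± 23.4), fell less. The C3a receptor gene C3ar1 stood at 78.9 ± 12.6 and 84.2 ± 15.5, and the C5a receptor gene C5ar1 at 39.1 ± 2.71 and 34.8 ± 18.1, and neither passed. All 8 B lymphocyte markers were lower, against 30.9% of all tested genes. Their summed level was 6426 to 7281 in control and 504 to 767 in knockout, and none was at 0 in all libraries of a group. Their part in the fall of Cr2 was not tested.

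The other regulators moved in both directions, with 4 of 12 tested genes higher, 3 lower and 5 not called. These shares were near those over all tested genes, 31.6% higher and 30.9% lower. The factors that work with factor I were uneven. C4bp encodes the alpha chain of C4b-binding protein, the cofactor for cleavage of C4b. It had 11.4, 3.21 and 6.04 normalised reads in control and 209, 209 and 182 in knockout. The ratio on 20 control and 630 knockout reads was 29.0 and its counting interval 18.6 to 47.8 (log2 change 4.81 ± 0.33, limma adjusted p = 1.9e-11). The membrane cofactor gene Cr1l, known as Crry, differed little (2024 ± 151 to 1818 ± 30.9, log2 change -0.15 ± 0.06, limma adjusted p = 0.023). Its groups overlapped, and its call was lost without the first control library (limma adjusted p = 0.086), without the second control library (0.13) and without the second knockout library (0.076). Cd46, a cofactor that in mice is known mainly from testis, was low in both groups (40.0 ± 12.1 and 33.4 ± 8.81) and did not pass.

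Clusterin, encoded by Clu, is a secreted chaperone that binds the terminal complex and is also a known gene of regenerating intestinal epithelium. It stood at 3550.3, 3618 and 3864 normalised reads in control and at 23216, 22488 and 22961 in knockout, a ratio of 6.22 (log2 change 2.64 ± 0.04, limma adjusted p = 4.7e-23). Of the carboxypeptidase N subunits, which inactivate the anaphylatoxins, the catalytic subunit gene Cpn1 rose (69.1 ± 10.1 to 144 ± 30.2, limma adjusted p = 5.6e-05) and the regulatory subunit gene Cpn2 fell (142 ± 5.21 to 52.2 ± 21.5, limma adjusted p = 1.3e-05).

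**Figure D4:**
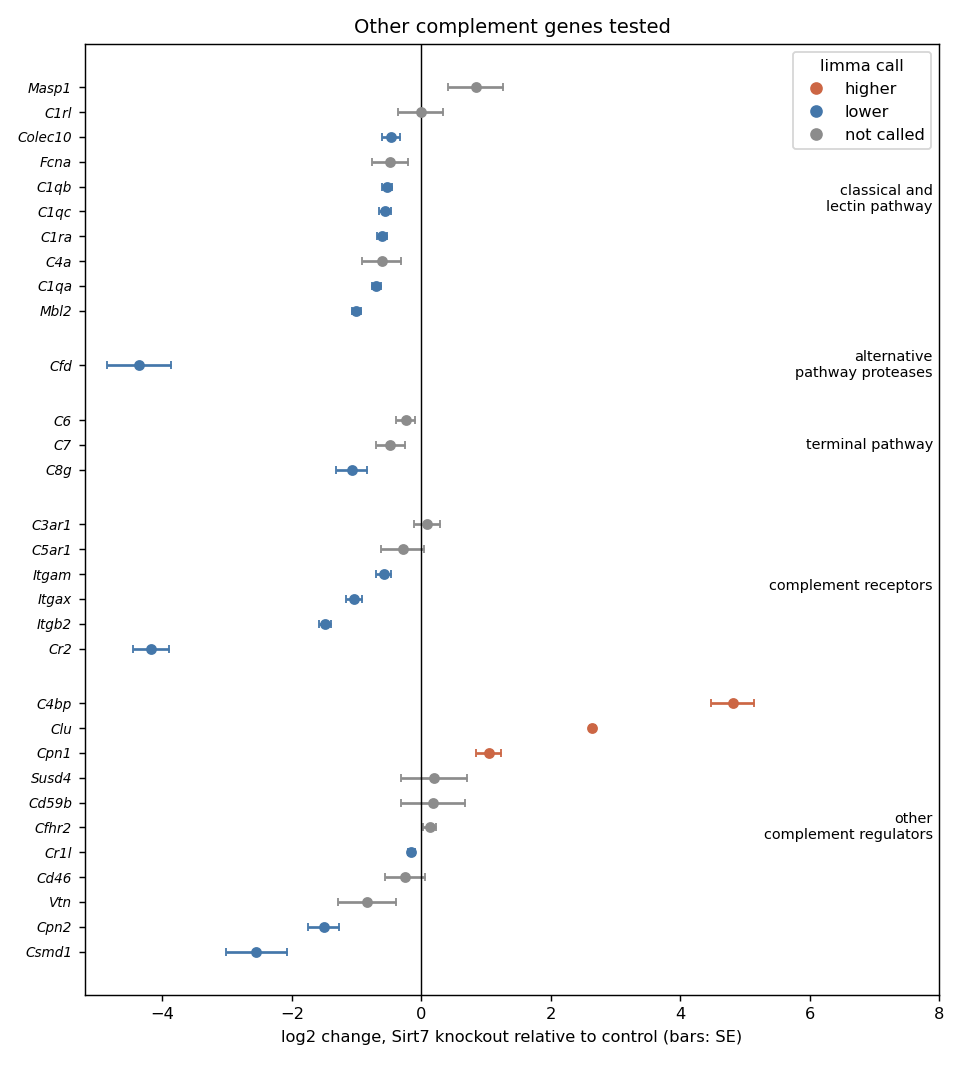
Log2 change, knockout relative to control, of tested complement genes outside the 9, grouped by role, with bars for the SE and colours for the limma call. Classical, lectin and receptor genes lie at or left of 0 in most cases, Cfd and Cr2 lie beyond -4, and C4bp (4.81) and Clu (2.64) lie farthest to the right.

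Cytokines that are known to induce complement genes were compared with their receptors and with a list of transcription factors of complement genes. That list was not limited to factors downstream of these cytokines. Of the cytokine genes, 5 of 7 tested rose and none fell. Of 13 receptor genes, 3 rose and 7 fell, and of 10 factor genes none rose and 6 fell, against 31.6% higher and 30.9% lower over all tested genes. Il6, a main inducer of acute-phase proteins, had 1.03, 1.07 and 0 normalised reads in control and 85.5, 85.7 and 61.0 in knockout. The ratio on 2 control and 244 knockout reads was 112 and its counting interval 30.7 to 932 (log2 change 5.59 ± 0.50, limma adjusted p = 1.4e-09). Il1b rose from 52.8 ± 22.6 to 288 ± 34.8 and Il1a from 32.2 ± 7.38 to 83.6 ± 3.77. Tnf passed narrowly and its groups overlapped (56.6 ± 20.4 to 85.4 ± 17.7, log2 change 0.64 ± 0.26, limma adjusted p = 0.039). Its call was lost without the third control library (log2 change 0.30, limma adjusted p = 0.27), the first knockout library (0.63, 0.082) or the third knockout library (0.49, 0.17), and in DESeq2 (0.60, adjusted p = 0.064).

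The receptor genes named by smallest p were lower: Il10rb, a shared chain of the interleukin 10 and 22 receptors, fell from 3042 ± 6.09 to 1728 ± 63.5, and Tnfrsf1a, Il22ra1 and Ifngr2 fell by 0.51, 0.44 and 0.40 on the log2 scale (SE 0.04 each). The 3 receptor genes that rose were those of the interleukin 1 receptor, Il1r1 (282 ± 16.7 to 357 ± 8.84, limma adjusted p = 0.0058), of the second TNF receptor, Tnfrsf1b (524 ± 40.4 to 748 ± 31.4, 5.2e-06), and of the oncostatin M receptor, Osmr (243 ± 9.43 to 308 ± 11.5, 0.0081). Irf1, a factor of interferon responses, fell from 8219.6 ± 121 to 5751 ± 42.0 (log2 change -0.52 ± 0.04, limma adjusted p = 6e-11). Relb, a subunit of the noncanonical NF-kB pathway, fell from 1687 ± 117 to 966 ± 48.2, Nfkb2 from 1076 ± 65.3 to 845 ± 60.3 and Nfkb1 from 2579 ± 108 to 2223 ± 28.8. Stat3, Rela and Cebpb did not pass.

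The summed levels of most cell type marker lists differed between the groups. Marker counts here and for the blood cell lists below are read against 31.6% higher and 30.9% lower over all tested genes. The labelled tissue was checked against 10 intestinal epithelial markers, led by Fabp2 and Sis, and all were detected in every library. Their summed level was 677464 to 717277 in control and 410313 to 429605 in knockout, and 9 of 10 were called lower. That sum follows its most abundant genes, such as Fabp2 (log2 change -0.79). Epcam (40870 ± 565 to 37743 ± 690, log2 change -0.11) and Cdx2 (2598 ± 145 to 2118 ± 142) fell less, and Cdx1 was not called. The share of epithelium in the tissue was not tested. All 8 crypt stem and progenitor markers were higher (4798 to 4916 in control, 16324 to 17702 in knockout). Among stromal lists, 7 of 8 fibroblast markers were higher and 1 was lower (8253 to 8501 in control, 14350.4 to 15135 in knockout). Of 8 endothelial markers, 4 were higher, 1 was lower and 3 were not called (3168 to 3362 and 3924 to 4284). The lower one was Pecam1, the most abundant of the list (762 ± 8.94 to 572 ± 12.2). Smooth muscle markers summed to 45009 to 47498 in control and 35179 to 37554 in knockout, with 1 of 8 higher, 5 lower and 2 not called.

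Among blood cell lists, all 6 tested markers of the T and NK lymphocyte list were lower (3198 to 3404 in control, 951 to 1077 in knockout). The NK markers of that list, Ncr1 and Klrb1c, were too low to be tested, so its calls do not cover NK cells. Of 5 neutrophil markers, 4 were higher (82.6 to 90.6 and 276 to 328). All 7 tested mast cell markers were higher (659.7 to 785 and 2342 to 2792, with Cma1 at 0 in every control library). All 9 pancreatic acinar markers were higher (246 to 279 in control, 3329 to 4029 in knockout). Of the follicular dendritic cell markers, 4 of 5 were lower and Clu was higher, so their sum (6138 to 6660.4 and 22819.8 to 23506) followed Clu. The hepatocyte list, for the liver cells that make plasma complement, was led by Cps1, which enterocytes also express. It summed to 13755 to 15465 in control and 13393 to 14155 in knockout, with 2 of 5 tested genes higher, 2 lower and Ahsg at 0 in every control library. That sum follows Cps1 (14493 ± 858 to 13483 ± 384). The plasma protein genes of the list did not move together. Alb (11.4 ± 2.47 to 136.9 ± 18.3) and Ttr (18.7 ± 7.38 to 173 ± 33.1) were called higher. Serpina1a was called lower (56.1 ± 9.89 to 8.18 ± 4.18), and Apoh was not called (16.3 ± 5.01 to 12.1 ± 7.43). The part of these lists in the changes of C3, C4b, Cfi, Cd55, Cd59a and Serping1 was not tested.

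**Figure D5:**
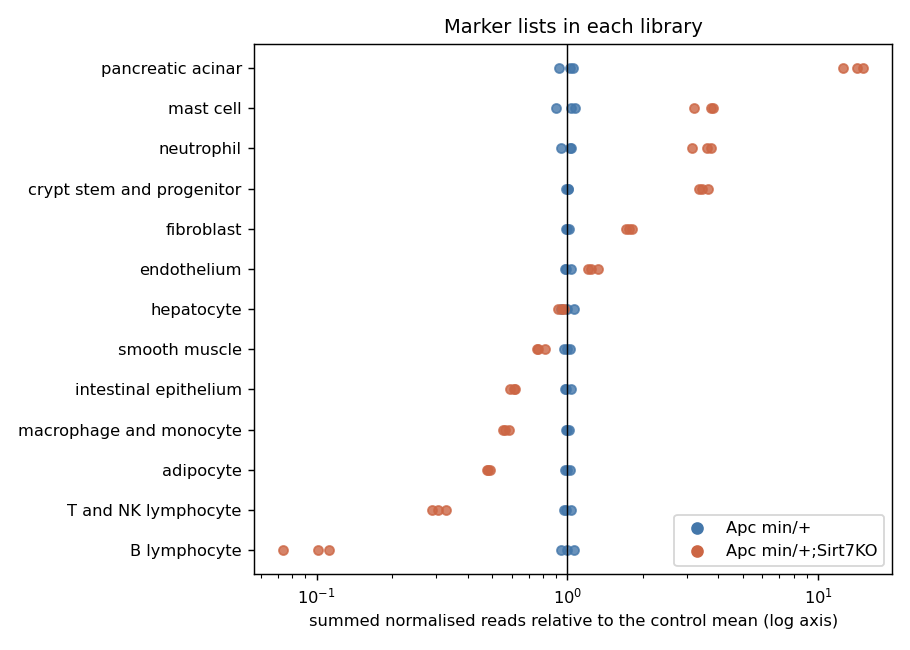
Summed normalised reads of each marker list except the follicular dendritic cell list, in every library, relative to the mean of the 3 control libraries (log axis, line at equality). Control libraries cluster at the line, while knockout libraries lie to the right for pancreatic acinar, mast cell, neutrophil, crypt and fibroblast lists and far to the left for B and T lymphocyte lists.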

How the data were processed

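RNA was extracted with Trizol and sequenced after TruSeq library construction, per the labels' protocols. The genome build was mm10, per the submitters' processing notes, which also name the tools as DESeq2, HTSeq 0.6.1p1, TopHat2 2.1.1, TopHat and FastQC, with no roles, order or strand setting given. The authors' deposited table held 20312 rows with a signal value per gene and library, that is, a count of reads over the library's size factor. Per the file headers it also held the authors' log2 fold change and its SE, a Wald score, and unadjusted and adjusted p-values. Whole reads were recovered from these values, since 100% of them in each library came out whole, within 0.01, when divided by the value of 1 read. In the third control and second knockout columns the value of 1 read lay close to 1. On these reads edgeR called 10374 genes and DESeq2 9906. Depth ran from 24987313 to 29603348 reads. Intervals cover counting error only, since no molecular identifiers separate PCR copies.

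The test covered 16600 genes that reached a value of 10 in 3 or more of 6 libraries. It was limma 3.58.1 (lmFit, eBayes with trend and robust estimation, R 4.3.3) on log2(value + 1). Genotype was its single term, and p-values were adjusted by Benjamini-Hochberg over all genes tested. Fold changes on this scale understate the change of low genes. Single ratios were compared by exact two-sided permutation. Counting intervals are exact binomial 95% intervals. The step was tested on simulated data with 200 changed genes, far fewer than were called here. That test therefore does not bear on the scaling of these data. As alternatives, the fit was repeated with a replicate block, without each library, with TMM or quantile scaling, at filters of 0 and 50, with pseudocounts of 10 and 0.5, without robust estimation, and with edgeR 4.0.16 and DESeq2 1.42.0.

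The 9 members and all gene lists were chosen with earlier results of these data known. Named genes are the 9, Sirt7, near-identical copies, and from each complement list up to 6, and from each cytokine, receptor and factor list up to 4, of the called genes by smallest p, if the mean of the higher group reached 50. From marker lists, only the 2 most abundant genes and genes at 0 in a whole group are named. Genes given as not called and genes named by position were added to this rule after their values were seen. So were Il1r1, Tnfrsf1b, Osmr, Adipoq, Plin1, Lep, Alb, Serpina1a, Ncr1, Klrb1c, Epcam and Cdx2. Some genes of the lists enter the counts and sums but are not reported here by name. Gene positions and transcripts are from GENCODE vM21 on GRCm38 (mm10), matched by symbol. Promoters are from RefSeq on GRCm38.p6.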

Additional observations from a re-analysis of the deposited data

How the results depend on the processing

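Across 16 alternatives the 9 genes kept the direction of every called change, with 3 called higher in each and 4 or 5 lower. None of these alternatives scaled by total reads, which limits most what they say of Serping1. The count of called members was 7 in every alternative but quantile normalization, where it was 8, because Cfb passed (log2 change -0.31, limma adjusted p = 0.047). The log2 change ranged from 4.36 to 4.46 for Cfi, -0.71 to -0.51 for C3, -0.70 to -0.58 for C4b, 0.32 to 0.51 for Cd55, 0.68 to 1.00 for Cd59a, -0.74 to -0.39 for Cfp (highest adjusted p 0.031) and -0.32 to -0.21 for Serping1 (highest adjusted p 0.013). Further complement genes called numbered 18 to 22, and 9484 to 10743 genes were called over all rows. C4a passed under quantile normalization (-0.78, adjusted p = 0.028) and without the first control library (-0.85, 0.025). Cd59b, not called in any alternative, changed sign there (-0.11 under quantile normalization, and -0.063 to 0.35 when leaving out 1 library). Under quantile normalization Cr1l (-0.08, adjusted p = 0.25) and Tnf (0.47, 0.12) no longer passed, and the share of all calls that were higher was 46.4%, against 50.6%. With a pseudocount of 10 the changes of Il6 (3.02), Cfd (-2.94) and C4bp (3.66) were smaller than with 0.5 (6.18, -4.56 and 4.92), and over all alternatives they ranged from 3.02 to 6.81, -4.90 to -2.94 and 3.66 to 5.20. With the length of the longest coding transcript, an alternative chosen after seeing the data, Cfi stood at 2.72 times C3 per kb in knockout (2.53 to 2.58 when leaving out 1 knockout library) and Cd55 at 1.95 times (1.02 to 1.03), because annotated exons of Cd55 span 4853 bases and its longest coding transcript 2533. The labels do not say whether the replicate numbers pair the libraries. Deviations of libraries with the same number correlated at 0.00032, 0.036 and -0.0063. With 3 libraries per group, such values cannot decide whether the libraries were paired. With the replicate number as a block, 7 of the 9, 19 further complement genes and 10402 genes over the whole table were called. Low counts limit C2, C4a, Cd59b, Il6, C4bp in control and Cfd in knockout.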
